A study of Mus musculus with 4 samples.

Results

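The genes described here encode the cytokines interleukin (IL)-23, IL-17A, IL-17F, IL-17C, IL-22, IL-19, IL-20 and IL-24 together with a receptor chain for the IL-17 group. They are Il23a, Il12b, Il17a, Il17f, Il17c, Il17ra, Il22, Il19, Il20 and Il24, chosen by name from the platform annotation of a mouse gene array. Of these 10 genes, 9 had a probe cluster of their own among 19938 genes with such a cluster. Probes along the exons of a gene form a cluster, which is read as 1 value. Il22 had none, since both of its clusters (2 in all) are annotated to Il22 and to Iltifb, a near-identical copy of Il22 in C57BL/6 mice. Those clusters are given under both names and are not counted among the 9.

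IL-23 is made by dendritic cells and macrophages and sustains T cells and innate lymphoid cells that make IL-17A, IL-17F and IL-22. These cytokines act on keratinocytes, the main cells of the epidermis, which answer with chemokines that draw neutrophils, with antimicrobial peptides and with growth. IL-17C and the IL-20 group (IL-19, IL-20 and IL-24) are made largely by keratinocytes and myeloid cells themselves, and the IL-20 group signals through STAT3. In skin this axis is best known from psoriasis.

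The study looked for genes that hold back keratinocyte growth and the maturation of the epidermis in mice that lose cFLIP, the product of Cflar and a brake on cell death through death receptors. Skin RNA of C57BL/6 mice was hybridised to 4 arrays. All mice were Tnfrsf1a+/-, with 1 functional allele of the gene for the TNF receptor TNFR1, so no group had a full set of TNFR1 alleles. Mice of genotype CflarF/F;K5-Cre;Tnfrsf1a+/- gave the K5-Cre arrays, replicates 2 and 6, and in them the keratin 5 promoter drives Cre in basal keratinocytes and their descendants but not in the immune or dermal cells of the same sample. The arrays without K5-Cre differ in genotype, since replicate 1 is CflarF/+;Tnfrsf1a+/- with a single floxed allele and replicate 3 is CflarF/F;Tnfrsf1a+/-. The labels give no age, sex, body site or batch and do not say whether RNA was pooled, so a p-value covers only how far these samples vary, and that variation may be technical.

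Skin differed between the groups over most of the array. Pearson's r over all clusters, which are not independent, was 0.995 within the no K5-Cre group, 0.985 within the K5-Cre group and 0.902 to 0.911 across groups. Cflar itself read 8.97 and 8.77 on the no K5-Cre arrays (log2 signal, replicates 1 and 3) and 9.69 and 9.71 on the K5-Cre arrays (replicates 2 and 6). It was therefore higher, not lower, in the group labelled K5-Cre. The floxed exon is not given, a cluster averages along the transcript, and Cre is not driven in other skin cells. This value therefore does not check the labels, and why Cflar read higher was not tested. Defining markers of keratinocytes were high on all 4 arrays, with a mean log2 signal over 11 genes of 11.5 on both no K5-Cre arrays and 12.4 and 12.1 on the K5-Cre arrays. Means over 14 monocyte and macrophage markers rose from 8.25 and 8.39 to 10.6 and 11.4, and over 13 neutrophil markers from 6.47 and 6.41 to 9.67 and 9.72. Means over 8 fibroblast markers went from 12.2 and 12.1 to 9.34 and 9.31, and over 8 skeletal muscle markers from 12.6 and 12.4 to 7.83 on both. In a piece of skin, fewer cells of a type and less RNA per cell cannot be told apart.

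Of the 9 genes, 3 rose in K5-Cre skin by more than 1 log2 unit: Il24, Il17ra and Il19. They still passed the test described below when the arrays were aligned at their low end, where Il19 was higher by 0.88. The ligands best known from T cells, Il17a, Il17f and the shared clusters of Il22, stayed near or under that low end in both groups, as did Il23a, Il12b and Il20. Il17c lay above it on all 4 arrays, and on the K5-Cre arrays its distance from it was similar to that of Il19. The low end was set on each array by 1194 olfactory and vomeronasal receptor genes, here called chemosensory receptor genes. Skin is not known to use them as a class. The 95th percentile of their signal, called the low-signal level, was 6.58 and 6.63 on the no K5-Cre arrays (replicates 1 and 3) and 7.15 and 7.17 on the K5-Cre arrays (replicates 2 and 6). Each probe set has its own brightness, so a place above or below that level is a description.

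**Figure D1:**
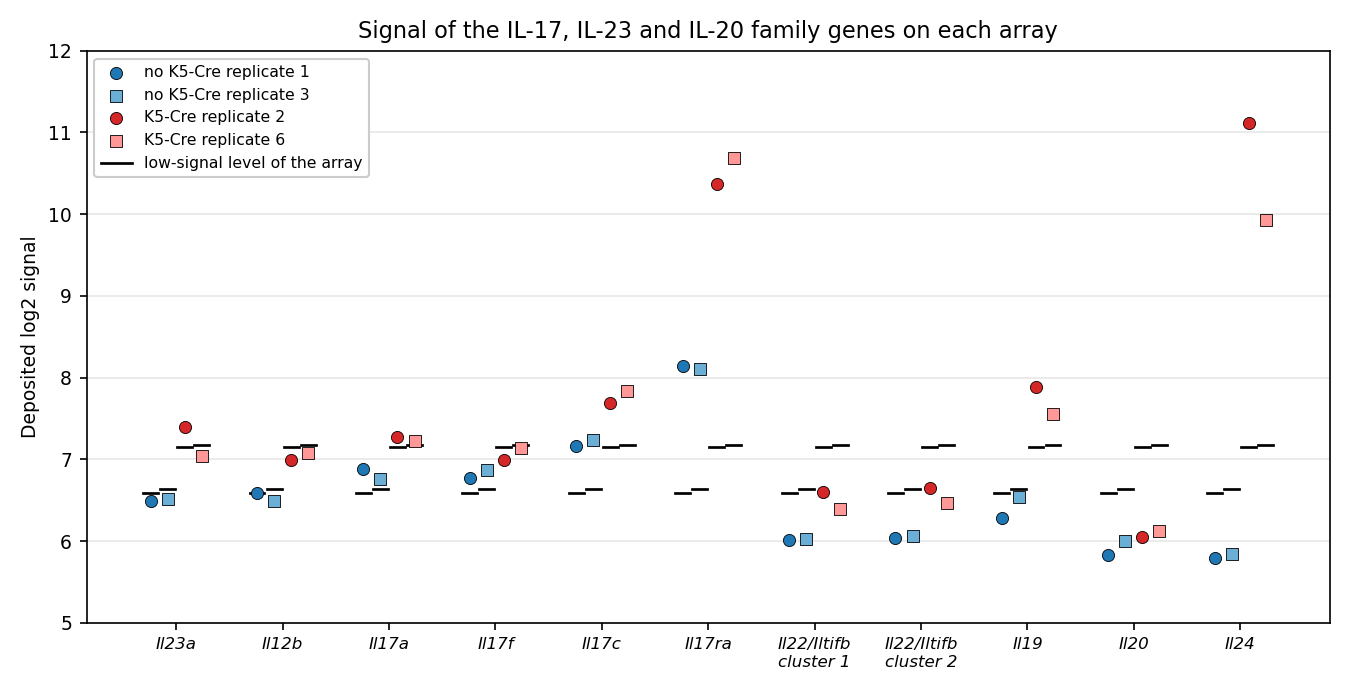
Deposited log2 signal of each gene on each of the 4 arrays (1 point per array), with the low-signal level of that array as a short black line; n = 2 arrays per group. Il24, Il17ra, Il19, Il17c and Il17a lie above the line on both K5-Cre arrays, and Il20 and both clusters shared by Il22 and Iltifb lie below it on all 4.

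The chemosensory receptor genes were themselves higher on the K5-Cre arrays, which bears on every low value below. Their median log2 difference (K5-Cre minus no K5-Cre) was 0.41, with the 5th to 95th percentile from 0.03 to 0.77, and 53.2% of them passed the test as higher. Over all genes the median difference was 0.11. The test was limma's moderated test, 2 arrays against 2, with Benjamini-Hochberg adjustment over 19938 genes and a threshold of 0.05. By this test 7 of the 9 genes were higher and 0 lower, where 30.8% of all genes were higher and 27.9% lower. The groups did not overlap, with K5-Cre above, for 9 of 9 genes, where 47.6% of all genes did the same. When each array was shifted so that the chemosensory receptor genes had the same median, 3 of the 9 passed as higher and 0 as lower, where 8.84% of all genes were higher and 48% lower. The 3 were Il24, Il17ra and Il19. That shift was chosen after the data were seen.

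**Figure D2:**
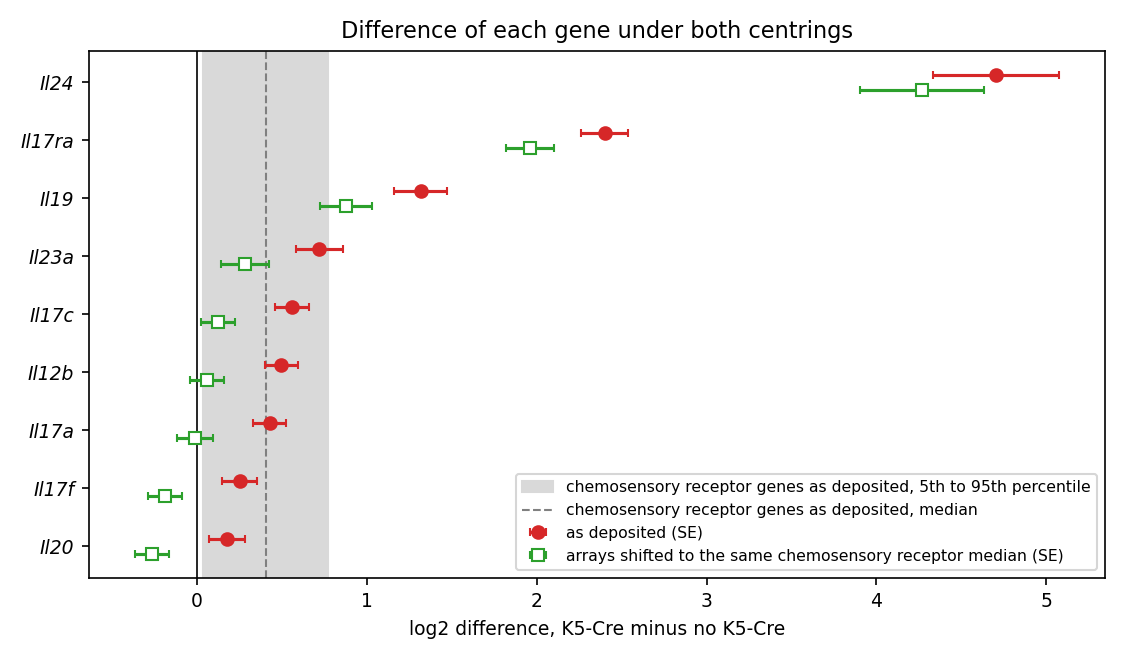
Log2 difference (K5-Cre minus no K5-Cre) with its moderated SE for 9 genes, n = 2 arrays per group, as deposited (filled circles) and with arrays shifted to the same chemosensory receptor median (open squares). Il24, Il17ra and Il19 lie beyond the grey band, which spans 0.03 to 0.77, and the other 6 lie inside it as deposited.

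Il24, Il20 and Il19 are neighbours in this order on chromosome 1, followed by Il10 with a long noncoding RNA gene between, in the RefSeq gene table of GRCm38.p6. The outer pair Il24 and Il19 rose and Il20, the gene between them, did not pass. Il20 lay below the low-signal level on every array, so a change in it could be missed. The stretches around the annotated starts of Il19 and Il20 are shown because Il19 passed and Il20 did not. Whether these stretches bear on that was not tested. They come from RefSeq (GRCm38.p6), run 5′ to 3′ from 250 bases before to 50 bases after the start, and carry any match to the motifs searched in capitals.
Il19 promoter, chr1:130940066-130940365 (- strand): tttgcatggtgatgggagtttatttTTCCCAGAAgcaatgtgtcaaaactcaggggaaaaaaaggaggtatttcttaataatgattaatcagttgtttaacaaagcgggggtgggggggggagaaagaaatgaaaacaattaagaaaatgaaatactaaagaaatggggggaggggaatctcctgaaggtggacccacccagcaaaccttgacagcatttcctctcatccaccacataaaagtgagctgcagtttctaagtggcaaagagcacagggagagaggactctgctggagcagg
Il20 promoter, chr1:130911247-130911546 (- strand): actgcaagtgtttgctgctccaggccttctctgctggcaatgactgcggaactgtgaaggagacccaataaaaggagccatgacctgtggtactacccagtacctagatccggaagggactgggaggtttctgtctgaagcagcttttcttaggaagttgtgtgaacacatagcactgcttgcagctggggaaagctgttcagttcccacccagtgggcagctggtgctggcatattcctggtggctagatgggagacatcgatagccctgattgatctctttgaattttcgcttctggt
The motifs, searched on both strands, were TGANTCA (AP-1), TTCNNNGAA (STAT) and a kappaB form, GGGA and TTCC with 2 bases of any kind between, and none of their matches here overlapped another motif. Il19 held 1 match, TTCCCAGAA, a STAT form that begins at -225 counted from the start site. Il20 held 0 matches. Of the 5 other genes with such a stretch in the RefSeq table, Il17a held 1 AP-1 match, TGAATCA at -244, and the others 0. Il24, Il17ra and Il23a had no stretch there and were not searched. Il19 is thus the only gene searched that passed after the shift, and Il22, also searched, was not fitted after it. The STAT form was found in 8.3% of 32851 promoter stretches of the same length, the AP-1 form in 7.81% and the kappaB form in 1.47%. A match is a description of these letters, and no match says only that they are not in this window.

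Il24, a cytokine of keratinocytes and activated leukocytes that signals to epithelium, had the largest difference of the 9 genes. Its log2 signal was 5.79 and 5.84 on the no K5-Cre arrays (replicates 1 and 3) and 11.12 and 9.92 on the K5-Cre arrays (replicates 2 and 6). Both controls lay below the low-signal level and both K5-Cre arrays far above it, and the K5-Cre replicates differed from each other by 1.19, or 2.29-fold, with replicate 2 the higher. The rise was 4.70 ± 0.37 (log2, SE, n = 2 per group, adjusted p = 0.000339). Since the controls were at low signal, their true level and so the fold are uncertain. Against the low-signal level of the control arrays, the K5-Cre mean of Il24 was 15.1-fold higher. With K5-Cre replicates 2.29-fold apart, that value is not a minimum for each array. With arrays shifted to the same chemosensory receptor median the rise was 4.27 ± 0.37 (adjusted p = 0.000193).

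The cluster of Il24 holds 32 probes on chromosome 1 from 132778651 to 132783916, minus strand (mm9, per the authors' deposited table). That table lists Il24 and Il17ra, 2 of the 10 genes, among 1396 clusters that passed its minimum fold of 4 against the CflarF/+ control. Its linear signal for Il24 was 96.6 and 105.8 on the no K5-Cre arrays (replicates 1 and 3) and 2976 and 1361 on the K5-Cre arrays (replicates 2 and 6). These give a log2 difference of 4.32, smaller than in the series table. All 4 arrays read higher there, the controls by more (log2 of 6.59 and 6.73) than the K5-Cre arrays (11.54 and 10.41). The authors' own fold against no K5-Cre replicate 1 in the authors' deposited table was 30.8 for replicate 2 and 14.1 for replicate 6.

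Il19, a cytokine of the same group made by keratinocytes and monocytes, rose less. Its log2 signal was 6.28 and 6.54 on the no K5-Cre arrays (replicates 1 and 3) and 7.89 and 7.56 on the K5-Cre arrays (replicates 2 and 6). The controls lay below the low-signal level and the K5-Cre arrays above it, by less than 1 log2 unit. The difference was 1.32 ± 0.15 (SE, n = 2 per group, adjusted p = 0.00134). After the shift to the chemosensory receptor median it was 0.88 ± 0.15 (adjusted p = 0.00329).

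Il20, the third ligand of the group, stayed at low signal. It read 5.83 and 5.99 on the no K5-Cre arrays (replicates 1 and 3) and 6.05 and 6.12 on the K5-Cre arrays (replicates 2 and 6). All 4 values lay below the low-signal level and the difference was 0.17 ± 0.11 (SE, adjusted p = 0.198), with -0.26 after the shift to the chemosensory receptor median and -0.050 after cyclic loess normalization. Its direction thus depends on scaling. Il10, the neighbour beyond Il19 and the namesake of their wider cytokine family, was higher by 1.16 ± 0.11 (SE, adjusted p = 0.00071) and by 0.72 after the shift (adjusted p = 0.00172), with all 4 of its values below the low-signal level.

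Il17ra, the receptor chain shared by the receptors of IL-17A, IL-17F and IL-17C, rose. Its log2 signal was 8.14 and 8.11 on the no K5-Cre arrays (replicates 1 and 3) and 10.36 and 10.69 on the K5-Cre arrays (replicates 2 and 6). It was the one gene of the 9 with values more than 1 log2 unit above the low-signal level in both groups, and the groups were wide apart compared with either pair. The rise was 2.40 ± 0.14 (log2, SE, n = 2 per group, adjusted p = 0.000127), or 5.28-fold, and 1.96 ± 0.14 after the shift (adjusted p = 9.99e-05). Its cluster holds 35 probes on chromosome 6 from 120413252 to 120433747, plus strand (mm9, per the authors' deposited table). The linear signal in the authors' deposited table was 304 and 330.5 on the no K5-Cre arrays and 1378 and 1582 on the K5-Cre arrays, a log2 difference of 2.22. Il17ra was higher on K5-Cre replicate 6 than on replicate 2, as was the mean over monocyte and macrophage markers (11.4 against 10.6), cells that also carry IL-17RA. Means over neutrophil markers (9.72 against 9.67) and dendritic and Langerhans cell markers (8.0 against 7.83) were higher on replicate 6 too. Il24 and Il19 were higher on replicate 2, as were the means over keratinocyte markers (12.4 against 12.1) and T cell and innate lymphoid markers (7.70 against 7.65). The part of these cell types in the differences was not tested.

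The ligand genes of the IL-17 group moved little. Il17a, the founding ligand and a product of T cells, read 6.88 and 6.76 on the no K5-Cre arrays (replicates 1 and 3) and 7.27 and 7.23 on the K5-Cre arrays (replicates 2 and 6). The 4 values sat just above the low-signal level of their arrays, and the level itself moved with them. The difference of 0.43 ± 0.10 (SE, adjusted p = 0.0131) passed the test as deposited, close to the chemosensory receptor median of 0.41, and was -0.0094 ± 0.11 after the shift (adjusted p = 0.947). Leaving out either control array also ended the call, with adjusted p = 0.0668 without replicate 1 and 0.117 without replicate 3.

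Il17f, the next gene to Il17a on chromosome 1 in the same table and the closest relative of Il17a, read 6.77 and 6.87 on the no K5-Cre arrays (replicates 1 and 3) and 7.0 and 7.14 on the K5-Cre arrays (replicates 2 and 6). The controls lay above the low-signal level and the K5-Cre arrays below theirs. The difference was 0.25 ± 0.10 (SE, adjusted p = 0.0807), which did not pass, and -0.19 after the shift (adjusted p = 0.16). Il17c, which epithelial cells make and also receive, read 7.17 and 7.23 on the no K5-Cre arrays and 7.69 and 7.83 on the K5-Cre arrays (same order of replicates). All 4 values were above the low-signal level, by less than 1 log2 unit, and the groups did not overlap. The difference of 0.56 ± 0.10 (SE, adjusted p = 0.00633) passed, a call lost after the shift (0.12 ± 0.10, adjusted p = 0.346) and with either control array left out (adjusted p = 0.0761 without replicate 1 and 0.0547 without replicate 3).

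The subunits of IL-23 showed small differences at low signal. Il23a encodes the subunit found in IL-23 alone. It read 6.49 and 6.51 on the no K5-Cre arrays (replicates 1 and 3) and 7.40 and 7.05 on the K5-Cre arrays (replicates 2 and 6), and only K5-Cre replicate 2 was above its low-signal level. The difference of 0.72 ± 0.14 (SE, adjusted p = 0.00739) passed as deposited, with the call lost after the shift (0.28 ± 0.14, adjusted p = 0.141) and with control replicate 1 left out (adjusted p = 0.0537). Il12b, whose product IL-23 and IL-12 share, read 6.59 and 6.49 on the no K5-Cre arrays and 7.0 and 7.08 on the K5-Cre arrays (same order). Its value on no K5-Cre replicate 1 lay barely above the low-signal level and the others below it. The difference of 0.50 ± 0.10 (SE, adjusted p = 0.00779) passed, with the call lost after the shift (0.059 ± 0.10, adjusted p = 0.654) and with either control array left out (adjusted p = 0.0508 without replicate 1 and 0.075 without replicate 3).

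The clusters shared by Il22, a T cell and innate lymphoid cytokine that acts on epithelium, and Iltifb lay below the low-signal level on all 4 arrays. The first read 6.01 and 6.02 on the no K5-Cre arrays (replicates 1 and 3) and 6.60 and 6.40 on the K5-Cre arrays (replicates 2 and 6), a difference of 0.48 ± 0.11 (SE, adjusted p = 0.0133). The second read 6.03 and 6.06 against 6.65 and 6.46, a difference of 0.51 ± 0.11 (SE, adjusted p = 0.0102). Both passed the test in a fit over clusters with any number of gene names, in which the chemosensory receptor clusters had a median difference of 0.42 and 55.1% passed as higher. Reads of the gene and its copy cannot be told apart on this array.

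**Figure D3:**
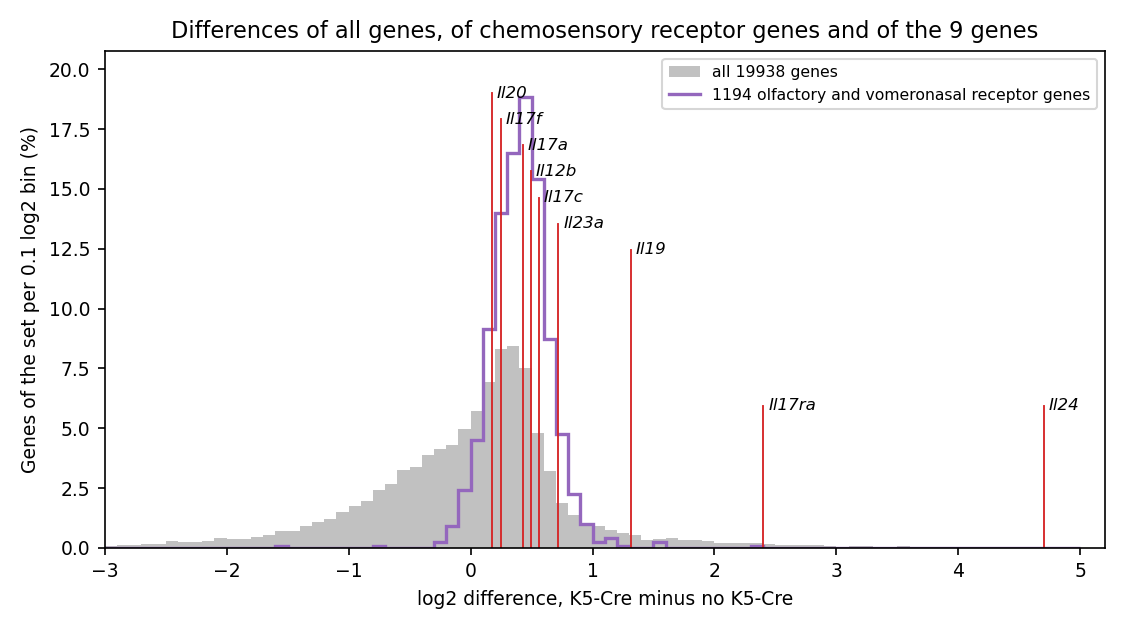
Share of genes in each bin of 0.1 of the log2 difference (K5-Cre minus no K5-Cre), for all 19938 genes (grey) and for 1194 chemosensory receptor genes (purple line), with the 9 genes as red lines whose heights carry no value; the axis is limited to -3 to 5. Il20, Il17f, Il17a, Il12b, Il17c and Il23a stand within the purple distribution and Il19, Il17ra and Il24 to the right of its bulk.

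For 5 of the genes, the 3 genes with the most similar pattern were found by the root mean square distance between log2 profiles over 4 arrays, each centred on its mean. The nearest to Il24 were Fetub (distance 0.13), Defb3 (0.13) and Chil1 (0.2), which rose by 4.47, 4.81 and 4.84 with replicate 2 above replicate 6 in each. The nearest to Il17ra were Efhd2 (0.02), Pfkfb3 (0.04) and Rac2 (0.04), and the nearest to Il19 were Phlda2, Zfand2a and Lce1e (each 0.04). The nearest to Il17a were the olfactory receptor gene Olfr1329 (0.0044), Mindy1 (0.0068) and Tnfrsf4 (0.0112). The nearest to Il17c were the olfactory receptor genes Olfr117 and Olfr180 (0.0040 and 0.0102), with Fpr-rs3 between (0.0071). Only 4 arrays define each pattern.

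The other genes of the pathway were read from lists by role. Of 8 other ligands, 6 were higher, 1 was lower and 1 did not pass, where 30.8% of all genes were higher and 27.9% lower. Their median difference was 0.50, near the chemosensory receptor median of 0.41. After the shift 2 were higher and 1 lower, where 8.84% of all genes were higher and 48% lower. Ebi3, a subunit of IL-27 and IL-35, rose by 1.79 ± 0.24 (SE, adjusted p = 0.00209) and Il17d, an IL-17 relative, fell by 0.80 (SE 0.12, adjusted p = 0.00295). Il12a, the partner of Il12b in IL-12, was higher by 0.71 ± 0.16 (SE, adjusted p = 0.0144), a call lost after the shift (adjusted p = 0.197).

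Of 13 receptor chains, 5 were higher, 3 lower and 5 did not pass (median 0.32), shares near the 30.8% and 27.9% of all genes. After the shift 2 were higher and 4 lower, where 8.84% and 48% of all genes were. Il10rb, the chain that IL-22 receptors share with IL-10 receptors, rose from 9.51 and 9.44 to 10.52 and 11.18 (log2 signal), by 1.38 ± 0.22 (SE, adjusted p = 0.00415). Il10ra, the other chain of the IL-10 receptor, rose by 2.14 ± 0.25 (SE, adjusted p = 0.00128). Both were higher on K5-Cre replicate 6 than on replicate 2. Il17rd, a chain that modulates IL-17 signalling, fell by 0.92 (SE 0.10, adjusted p = 0.0012). Il23r was higher by 0.61 ± 0.19 (SE, adjusted p = 0.0359), a call lost after the shift (adjusted p = 0.46), with all 4 values below the low-signal level.

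The chains through which IL-19, IL-20 and IL-24 act were looked at for their role, after their values were seen. Il20rb, a chain common to their receptors, fell by 0.38 (SE 0.11, adjusted p = 0.0275), from 9.14 and 9.03 to 8.75 and 8.65. Its partner Il22ra1, which also binds IL-22, read 9.40 and 9.31 against 10.63 and 9.67 and did not pass (0.79 ± 0.31, adjusted p = 0.0694). Its other partner Il20ra lay below the low-signal level on all 4 arrays and did not pass (0.47 ± 0.17, adjusted p = 0.0602). Il17rc, the partner chain of Il17ra for IL-17A and IL-17F, read 9.34 and 9.22 against 9.64 and 9.30 and did not pass (0.19 ± 0.15, adjusted p = 0.304).

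Of 23 measured signal transducers and brakes of the pathway, 14 were higher, 1 lower and 8 did not pass (median 0.54), against 30.8% higher and 27.9% lower over all genes. After the shift 9 were higher and 5 lower, against 8.84% and 48%. Socs3, a STAT3-induced inhibitor of cytokine receptors, rose from 8.07 and 7.94 to 10.63 and 10.60, by 2.61 ± 0.11 (SE, adjusted p = 5.1e-05). Nfkbiz, which encodes a nuclear cofactor of NF-kappaB that IL-17 induces, rose by 2.07 ± 0.16 (SE, adjusted p = 0.000301). Zc3h12a, encoding a ribonuclease that limits IL-17 responses, rose by 1.97 ± 0.10 (SE, adjusted p = 9.1e-05), and the kinase gene Jak2 by 1.92 ± 0.17 (SE, adjusted p = 0.000553). These 4 also passed after the shift. Traf3ip2, which encodes the adaptor Act1 and was picked for its role after its value was seen, read 8.47 and 8.59 against 8.77 and 8.66 and did not pass (0.18 ± 0.11, adjusted p = 0.202).

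Of 24 measured genes that IL-17 or IL-22 is known to induce in epithelium, 24 were higher, with a median difference of 4.76, and 21 were higher after the shift. Over all genes 30.8% were higher, and 8.84% after the shift. The list was drawn up with results of these data known, and 4 of the 24 lay below the low-signal level on all 4 arrays. Other signals, among them TNF, IL-1 and growth stimuli, induce the same genes, and some are abundant in neutrophils. S100a8, an alarmin of neutrophils and keratinocytes, read 5.91 and 5.48 against 12.61 and 12.45. The beta-defensin gene Defb14 read 5.07 and 4.95 against 11.02 and 10.59. The injury keratin genes Krt16 and Krt6b rose by 5.85 ± 0.16 and 5.75 ± 0.10 (SE). In the same arrays, 12 of 13 neutrophil markers were higher and 0 lower (median 3.42), with none of the 13 below the low-signal level on all 4 arrays, and the part of neutrophils was not tested. Of 10 genes whose products start or feed the axis, 7 were higher, 1 lower and 2 did not pass (median 1.48), against 30.8% higher and 27.9% lower over all genes. After the shift 7 were higher and 3 lower, against 8.84% and 48%. Il1b, Il6 and Ccl20, 3 of these 10, are also counted among the 24 epithelial targets. Tslp, an epithelial cytokine gene, rose by 5.15 ± 0.22 (SE), Il1b by 3.27 ± 0.21, Il1a by 2.87 ± 0.38 and Il6 by 2.63 ± 0.14, with Il6 below the low-signal level on all 4 arrays.

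**Figure D4:**
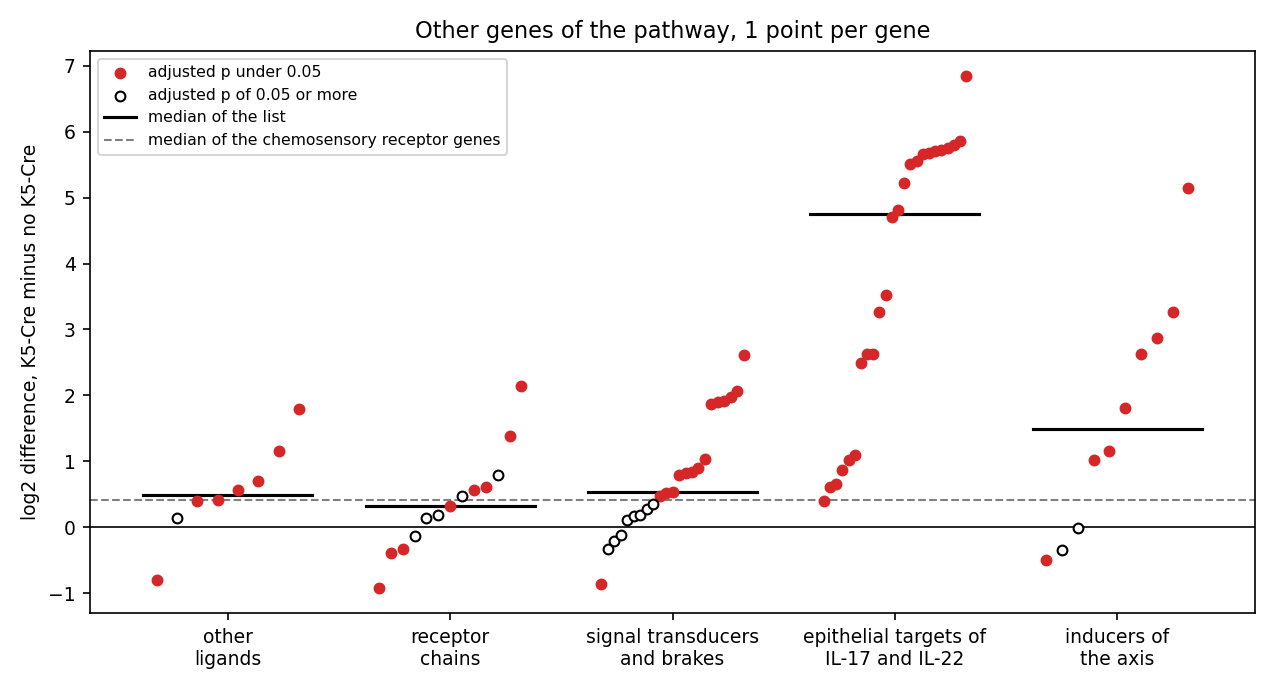
Log2 difference (K5-Cre minus no K5-Cre) of each measured gene of 5 lists, 1 point per gene, n = 2 arrays per group; filled points passed the adjusted threshold of 0.05, black bars are list medians and the dashed line is the chemosensory receptor median of 0.41. The epithelial targets have a median of 4.76, and most of the other ligands and receptor chains lie within 1 unit of the dashed line.

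Markers of the cells that make the ligands were read in the same arrays. Of 20 T cell and innate lymphoid markers, 11 were higher, 3 lower and 6 did not pass (median 0.33), against 30.8% higher and 27.9% lower over all genes. After the shift 3 were higher and 6 lower, against 8.84% and 48%. Their mean log2 signal was 7.41 and 7.45 on the no K5-Cre arrays and 7.70 and 7.65 on the K5-Cre arrays. Of these markers, 6 lay below the low-signal level on all 4 arrays, among them the T cell receptor genes Cd3d and Cd3g, named after their values were seen. Cd3e, another gene of the same complex, was above that level on all 4 and passed as higher (0.75 ± 0.12, adjusted p = 0.00451), a call lost after the shift (0.31, adjusted p = 0.079). Il7r, a receptor of T cells and innate lymphoid cells, rose by 2.07 ± 0.24 (SE, adjusted p = 0.00122) and Il18r1 by 1.02 ± 0.12 (SE, adjusted p = 0.0014), whereas Zbtb16 fell by 2.01 (SE 0.11, adjusted p = 0.000109) and Thy1 by 1.06 (SE 0.11, adjusted p = 0.000842). Thy1 is also a gene of fibroblasts, whose 8 markers were all lower, and which cells gave the Thy1 signal was not tested. Zbtb16 read 10.57 and 10.47 on the no K5-Cre arrays, where Cd3d read 6.01 and 5.77, and which cells gave the Zbtb16 signal was not tested. Of 15 dendritic and Langerhans cell markers, 10 were higher and 0 lower (median 0.48), against 30.8% and 27.9% of all genes. After the shift 6 were higher and 1 lower, against 8.84% and 48%. Their mean log2 signal was 6.93 and 7.13 on the no K5-Cre arrays and 7.83 and 8.0 on the K5-Cre arrays. The antigen presentation gene Cd74 and the integrin gene Itgax rose by 2.49 ± 0.25 and 1.92 ± 0.13 (SE), and both are shared with macrophages. Irf8, a transcription factor gene of myeloid cells, rose by 1.69 ± 0.27 and the class II gene H2-Aa by 1.42 ± 0.23. Besides the 6 markers of this list higher after the shift, Xcr1 was lower (-0.27, adjusted p = 0.0496). Flt3 (0.042), Batf3 (-0.0009), Zbtb46 (-0.19) and Clec9a (-0.23) did not pass then. Xcr1 and these genes were named after their values were seen. Cd207, the defining gene of Langerhans cells, named after its value was seen, lay below the low-signal level on all 4 arrays. The part of these cells in the values of Il17a, Il17f, Il22 and Il23a was not tested.

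Most other marker lists moved further. The counts below stand against 30.8% of all genes higher and 27.9% lower. Of 14 monocyte and macrophage markers, 14 were higher (median 2.59), led by Itgam (4.75 ± 0.16, SE), Cd14 (4.2 ± 0.16), Cd163 (3.36 ± 0.46) and Ms4a7 (2.87 ± 0.28). The neutrophil markers were led by the chemokine receptor gene Cxcr2 (6.46 ± 0.18), Mmp8 (5.85 ± 0.19), Retnlg (5.58 ± 0.10) and Ngp (4.79 ± 0.37). Of 11 keratinocyte markers, 6 were higher and 0 lower (median 0.30), led by the desmosomal gene Dsg3 (3.24 ± 0.13), Krt14 (1.36 ± 0.085), Cdh1 (1.32 ± 0.11) and Perp (0.88 ± 0.091). After the shift 4 of these 11 were higher and 3 lower, against 8.84% and 48% of all genes. Markers of the deeper skin were lower. Of 8 fibroblast markers, 8 were lower (median -2.98), with Lum, Dpt, Col1a2 and Col3a1 at -3.83, -3.54, -3.14 and -3.02. Of 8 skeletal muscle markers, 8 were lower (median -5.02), with Neb, Myh3, Ttn and Myh8 at -5.61, -5.30, -5.27 and -5.22. Of 8 adipocyte markers, 7 were lower and 1 higher (median -2.34), with Car3, Adipoq, Lpl and Fabp4 at -6.04, -4.23, -2.67 and -2.50. Of 7 mast cell markers, 6 were lower and 0 higher (median -2.09), with Mcpt4, Cpa3, Tpsb2 and Cma1 at -5.45, -4.15, -2.37 and -2.09. Whether these marker differences bear on those of Il24, Il17ra and Il19 was not tested.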

How the data were processed

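Skin RNA was biotin-labelled and read on Affymetrix MoGene 1.0 ST arrays, per the labels and the file headers. The deposited log2 values of 35557 clusters per array were used unchanged; their summarisation and normalization by the authors are not given in the sources used here. In a second deposited table of 1396 clusters, the authors give a linear signal intensity, a log2 value relative to the no K5-Cre arrays, and ratios as folds against no K5-Cre replicate 1, after an expression filter at the 20th percentile and a 4-fold minimum, per the file headers.

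Gene names came from the platform's annotation of clusters, where 21789 have 1 symbol, 1621 several and 12147 none; 21698 of the first kind were matched by Entrez identifier to RefSeq symbols. The cluster with the highest mean stood for each gene. The comparison used limma 3.58.1 under R 4.3.3 (lmFit, eBayes with a variance trend) over 19938 genes, with no filter on low values, so that every gene described entered the fit. The median SE was 0.12 and the moderated test had 5.63 degrees of freedom. With 2 arrays per group, an exact permutation test cannot go below a two-sided p of 0.333, so each p rests on the variance model, and the number of arrays limits the precision. The test was run on simulated data first. The low-signal level is the 95th percentile, per array, of 1194 chemosensory receptor genes (symbols starting Olfr, Or and a digit, Vmn1r or Vmn2r). The fold of Il24 against the low-signal level sets the K5-Cre mean against the higher of that level and the measured value on each control array, averaged.

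The genes, lists and marker lists were chosen with earlier results of these data known. Named from each pathway and marker list were the 4 genes with the largest difference past the threshold, and for genes past the threshold and above the low-signal level on both arrays of the higher group, the 3 with the most similar profile. Listed genes without a cluster of their own were not analysed here. Alternatives were a filter, a floor, other normalizations and centrings, another variance model, other naming and each array left out. Promoter stretches were matched by symbol to a RefSeq table of GRCm38.p6, which held 7 of the 10 genes.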

Additional observations from a re-analysis of the deposited data

How the results depend on the processing

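No paired analysis was possible because the groups share no replicate number. The differences of Il24, Il17ra and Il19 kept their direction and passed the test under every alternative that tested them. Il24 and Il17ra are 2 of the 9 genes above the filter level of 7.61, so with that filter the other 7 were not tested and the count of genes higher was 2. With arrays shifted to the same chemosensory receptor median, 3 were higher. The differences were then 0.28 for Il23a, 0.059 for Il12b and 0.12 for Il17c, none past the threshold, and reversed for Il17a (-0.0094), Il17f (-0.19) and Il20 (-0.26). That shift lowers every gene alike, so it also gave 1762 genes higher and 9573 lower over the whole array. Quantile normalization and cyclic loess kept the calls of Il23a, Il12b, Il17a and Il17c, and left the chemosensory receptor genes with median differences of 0.28 and 0.21. Cyclic loess reversed Il20 (-0.050). The floor raised Il17f to 0.34 and Il20 to 0.55, both past the threshold, by its construction, since the low-signal level is higher on the K5-Cre arrays. With arrays shifted to the same median of all clusters, Il17f was 0.32 and passed.

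Over all genes, 6145 were higher as reported, 2836 with the filter and 10130 with the floor. With an array left out, the count was 2178 to 7567 higher and 2924 to 6796 lower. Of the 9 genes, 3 to 8 were then higher, the fewest without no K5-Cre replicate 1, the CflarF/F comparison that the series text states, and 4 without replicate 3. The ranges of the difference were 0.54 to 0.90 for Il23a (adjusted p up to 0.0537), 0.45 to 0.54 for Il12b (up to 0.075), 0.37 to 0.49 for Il17a (up to 0.117), 0.18 to 0.32 for Il17f (0.0209 to 0.364), 0.49 to 0.63 for Il17c (up to 0.0761), 2.24 to 2.56 for Il17ra, 1.15 to 1.48 for Il19, 0.09 to 0.26 for Il20 and 4.11 to 5.30 for Il24. Leaving out a no K5-Cre array leaves 1 control and the wider K5-Cre spread as the only measure of error, the lone array being assumed to vary like the other group.

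Among other ligands, 3 were higher with the filter, 2 after the chemosensory receptor shift and 2 to 6 with an array left out. Among receptor chains, 2 were higher with the filter, 8 with the floor, 3 with quantile normalization, 2 after the chemosensory receptor shift, 3 with cyclic loess and 2 to 8 with an array left out. Lower among them were 1 with arrays shifted to the same median of all clusters and 1 to 4 with an array left out. Among signal transducers and brakes, 9 were higher and 5 lower after the chemosensory receptor shift, and 8 to 18 higher and 1 to 3 lower with an array left out. Of the genes that start or feed the axis, 0 were lower with the filter, 0 with the floor, 2 with quantile normalization, 3 after the chemosensory receptor shift, 2 with cyclic loess and 0 to 2 with an array left out. By its construction the floor lifts genes at low signal, and under it 99.8% of the chemosensory receptor genes passed as higher. The filter left genes under its level untested, and of 11255 genes tested 2836 were higher. For the other list counts the cause was not tested. Signal over background could be judged only through the chemosensory receptor genes.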
